A study of Mus musculus with 141 samples.

Results

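Naive CD4 T cells of C57BL/6 mice, activated in culture without polarizing cytokines, were compared at 4 h against 2 h of culture. The comparison uses 6 of the 141 samples of the series, chosen by their labels: 3 libraries at each time, from replicates 1, 2 and 3. The cells came from spleen and lymph nodes, were sorted as CD4+CD25-CD44lo, and were grown in IMDM medium on plates coated with antibodies to CD3 and CD28, a treatment that both groups share. This culture is called Th0 in the labels. The same step in parallel cultures that also received IL6 and TGFb (3 libraries at each time) served as the comparison, and resting cells at 0 h and Th0 cells at 0.5, 1 and 6 h gave the context. Sorted cells on coated plates are a model without antigen-presenting cells. The labels call the replicates biological, but their mice or cultures are not named in these sources. Standard errors and p-values use 1 estimate of spread per gene over 57 libraries in 19 groups. These are the resting cells and all times of both cultures up to 72 h, so p-values measure the spread between those libraries only.

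A resting naive T cell is held out of cell cycle by a set of transcription factors and receptors for homing and survival. When the T cell receptor and CD28 are engaged, calcium, MAP kinase and NF-kB signals first induce immediate early genes, which need no new protein and are mostly transient. Their products and MYC then raise the machinery for protein, nucleotide and energy production, before the cell enters S phase. The 2 to 4 h step lies between these phases.

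The genes Mir132 and Mir212 were among the 12 named falls with the largest change, and their mature products are shown because both carry the same seed, the stretch that pairs with target RNAs. The RefSeq table (GRCm38.p6) places them on chromosome 11, plus strand, at 75173723 to 75173744 for miR-132-3p and at 75173443 to 75173464 for miR-212-3p. Capitals mark the seed, bases 2 to 8, written 5′ to 3′.
mmu-miR-132-3p: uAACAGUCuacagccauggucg
mmu-miR-212-3p: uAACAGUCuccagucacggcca
Levels are given in CPM, a gene's reads scaled to a fixed library total and then divided by a TMM scaling factor of the library. These factors were 0.837 to 0.88 at 2 h and 0.937 to 0.949 at 4 h, so printed levels lie above the deposited CPM. Mir132 read 6.56, 5.56 and 9.75 CPM at 2 h and 0.267, 0.396 and 0.709 at 4 h, and the groups did not overlap. Mir212 read 8.7, 9.61 and 14.5 CPM at 2 h and 0.647, 0.704 and 1.42 at 4 h. Both fell by 3.02 on the log2 scale (SE 0.2 for Mir132 and 0.19 for Mir212). In resting cells the means were 0.0715 CPM for Mir132 and 0.167 CPM for Mir212, so the 2 h level was a transient high point. The 2 loci are neighbours on 1 strand, libraries of this kind capture longer RNA, and the values may therefore stem from a shared precursor. They say nothing of the mature miRNA level.

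Promoter stretches of 4 list members are shown because immediate early genes fell and ribosome biogenesis genes rose over the step, and each holds a motif searched for in the 250 bases before the gene start. TGACGTCA is the binding motif of CREB and ATF factors, and CACGTG is the E-box of MYC and MAX; both were searched on both strands. All 4 stretches are from RefSeq (GRCm38.p6), run 5′ to 3′ on the gene's own strand, and have the motif in capitals. Btg2 encodes an antiproliferative factor and Maff a small MAF transcription factor. Rrn3 encodes an initiation factor of RNA polymerase I and Nop2 a methyltransferase of ribosomal RNA. Their positions are chr1:134079156-134079405 (minus strand) for Btg2, chr15:79347270-79347519 (plus) for Maff, chr16:13780449-13780698 (plus) for Rrn3 and chr6:125131633-125131882 (plus) for Nop2.
Btg2: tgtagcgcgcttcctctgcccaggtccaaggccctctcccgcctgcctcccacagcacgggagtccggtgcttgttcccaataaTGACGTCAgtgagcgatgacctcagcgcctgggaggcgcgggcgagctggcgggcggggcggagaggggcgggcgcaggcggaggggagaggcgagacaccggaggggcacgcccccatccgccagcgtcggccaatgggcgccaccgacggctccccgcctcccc
Maff: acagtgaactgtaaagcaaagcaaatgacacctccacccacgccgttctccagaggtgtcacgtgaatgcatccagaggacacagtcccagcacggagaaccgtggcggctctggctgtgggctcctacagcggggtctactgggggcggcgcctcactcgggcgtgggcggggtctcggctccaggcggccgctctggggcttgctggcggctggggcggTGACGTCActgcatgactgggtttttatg
Rrn3: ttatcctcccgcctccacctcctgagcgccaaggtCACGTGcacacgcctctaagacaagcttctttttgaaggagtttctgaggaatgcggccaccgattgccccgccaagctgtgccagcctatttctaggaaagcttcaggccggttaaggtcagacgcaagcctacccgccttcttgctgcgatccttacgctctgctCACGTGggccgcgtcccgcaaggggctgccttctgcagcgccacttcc
Nop2: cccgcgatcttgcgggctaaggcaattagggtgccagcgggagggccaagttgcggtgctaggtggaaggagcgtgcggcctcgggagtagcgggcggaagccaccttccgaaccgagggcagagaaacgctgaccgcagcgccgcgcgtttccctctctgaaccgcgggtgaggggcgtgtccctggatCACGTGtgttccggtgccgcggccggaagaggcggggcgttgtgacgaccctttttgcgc
The motif starts 166 bases before the gene start in Btg2, 29 in Maff, 215 and 48 in Rrn3, and 60 in Nop2. The Maff window also holds a CACGTG, left in lower case. Such matches are not particular to these genes: of 27025 genes in the promoter table, 6.86% hold CACGTG and 1.77% hold TGACGTCA in at least 1 window. Among the ribosome biogenesis genes 41 of 47 had a promoter in the table, and CACGTG was found in 2 of them (4.88%), the pair shown. TGACGTCA was found in 2 of the 41 as well (4.88%). Among the 22 one-carbon, nucleotide and polyamine genes, 19 had a promoter and 4 of those (21.1%) held CACGTG. For the NF-kB list, 14 of 17 genes had a promoter and 5 (35.7%) held the kappa B motif, against 1.65% of the whole table. The table also covers genes not expressed in these cells. Of the genes tested here, 70.9% had a promoter, too few for a firm share. Among those, 9.86% held CACGTG, 3.04% TGACGTCA and 1.76% the kappa B motif. For the immediate early list only 17 of 22 (77.3%) had a promoter, so a share for that list is void. TGACGTCA was in 2 of the 17 and CACGTG in 3, so neither motif was confined to the list it is shown for. The other motifs searched, TGANTCA of AP-1, TGATGNAAT of ATF4 and 1 fixed spelling of the CArG box of SRF, were in none of the 17, nor in any of the 41 ribosome biogenesis promoters. A match is a description and no sign of binding.

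The 6 libraries held 21.6 to 28 M reads, so 1 read was worth at most 0.0464 CPM before the TMM scaling. Replicates of a group differed by far more than sampling noise. The 20 most abundant genes took 8.93% to 9.26% of reads at 2 h and 7.34% to 7.51% at 4 h. CD4 T cell identity was clear: the summed level of 12 defining genes was 7290 to 8280 CPM at 2 h and 4710 to 4840 CPM at 4 h, after 7060 to 7460 CPM at 0 h. Of these 12 genes 10 were lower at 4 h and 0 higher, against 26% and 25.9% of all genes tested. Lck, the proximal kinase of the receptor, fell by 1.15 (log2), Cd3e by 0.91 and Cd4 by 0.76; Thy1 and Zap70 were not called, at -0.05 and 0.18. Genes of other cell types were low in all 6 libraries. B cell genes summed to 59.4 to 82.9 CPM at 2 h and 29.8 to 44.6 CPM at 4 h (2 of 9 lower), after 487 to 537 CPM at 0 h. Most of each sum at 2 and 4 h was Ighm, at 51.9 to 69.3 and 24 to 35.4 CPM. Erythroid and platelet genes summed to 38.6 to 57 and 20.6 to 33.5 CPM, after 37.4 to 67.3 CPM at 0 h (5 of 8 lower, with 2 of the 10 listed genes at 0 in all 6 libraries). Myeloid genes summed to 25 to 32.1 and 20.5 to 26.5 CPM (3 of 9 lower), after 56.5 to 64.2 CPM at 0 h. NK and gamma-delta genes summed to 6.41 to 9.85 and 4.13 to 5.67 CPM (2 of 6 lower), after 21.7 to 23.4 CPM. The 2 CD8 genes summed to 10.9 to 16 and 5.91 to 10.7 CPM (1 lower), after 16.8 to 24 CPM. None of these lists had a gene called higher. The counts lower among B cell, myeloid, and NK and gamma-delta genes are near the 26% of all genes tested. In bulk RNA, fewer cells of a type and less RNA per cell cannot be told apart.

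Between 2 and 4 h, 7624 of 14695 genes tested (51.9%) were called by limma at a Benjamini-Hochberg adjusted p under 0.05, 3799 of them higher at 4 h (25.9%) and 3825 lower (26%). These percentages are the background for each list count, including those of the cell type lists above. Calls with at least a 2-fold change numbered 857 higher (5.83%) and 1272 lower (8.66%), and the libraries of the 2 groups did not overlap for 9307 genes (63.3%). The near-even split depends on the scaling: with unscaled CPM, 4666 genes were higher and 3010 lower, so that 60.8% of calls were higher instead of 49.8%. All log2 changes are 4 h minus 2 h of log2(scaled CPM + 0.5), given with the standard error, and they understate the change of low genes.

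**Figure D1:**
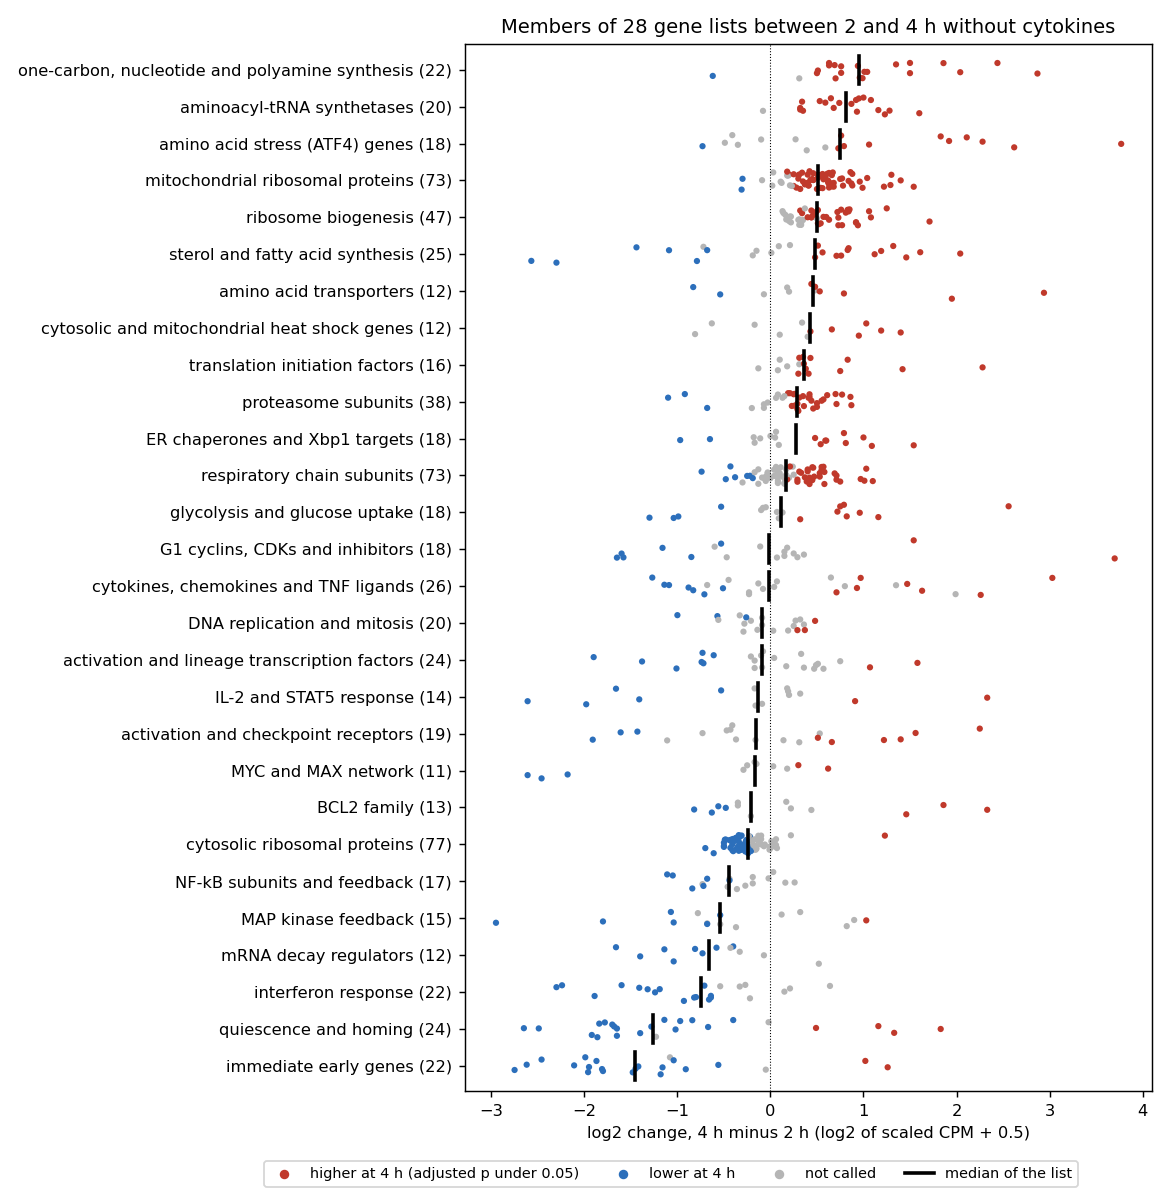
Log2 change between 2 and 4 h (x axis) of each tested member of 28 gene lists (rows, number of tested members in brackets), with red points higher at 4 h, blue points lower, grey points not called and a black bar at the list median. Immediate early and quiescence genes lie to the left (medians -1.46 and -1.26), and one-carbon and nucleotide genes and tRNA synthetases to the right (medians 0.95 and 0.81).

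Of 22 immediate early genes, 18 were lower at 4 h, 2 were higher and 2 were not called, with a median log2 change of -1.46 against -0.03 over all genes tested. Nr4a1, an orphan nuclear receptor that reports on receptor signal strength, read 12600, 11400 and 11200 CPM at 2 h and 3570, 2880 and 3730 CPM at 4 h. Its groups were far apart and it fell by 1.80 ± 0.51 (adjusted p = 0.00306). Nr4a2, a relative, was nearly the same in all 2 h libraries (2180, 2190 and 2190 CPM) and stood at 270, 303 and 415 CPM at 4 h, a change of -2.75 ± 0.54. Fosl2, a FOS family partner of JUN in AP-1, went from 2780, 2670 and 2470 CPM to 414, 353 and 539 CPM (-2.62 ± 0.36). Fos itself was already past its high point: it read 296, 199 and 166 CPM at 2 h and 68.3, 52.5 and 46.9 CPM at 4 h (-1.95 ± 0.40), below its 0 h mean of 726 CPM. Egr1, Atf3, Btg2 and Jun changed by -1.96, -2.11, -1.99 and -1.45. Of the 18 genes that fell, the highest mean among 0, 0.5, 1, 2, 4 and 6 h was at 0.5 h for 6, at 1 h for 9 and at 2 h for 3, and all 18 were lower still at 6 h. Of all 3825 genes called lower, 1173 were highest at 0 h, 468 at 0.5 h, 1244 at 1 h and 936 at 2 h. Of these 3825 genes, 2603 were lower still at 6 h.

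The exceptions within that list were Fosl1 and Ier3. Fosl1, which encodes the AP-1 protein FRA1, read 17.4, 26.3 and 25.3 CPM at 2 h and 49.4, 62.1 and 54 CPM at 4 h. It rose by 1.26 ± 0.45 (adjusted p = 0.018), but the call was lost without replicate 1 at 2 h (1.08, adjusted p = 0.0794) or replicate 2 at 4 h (1.17, 0.0577). Ier3, a stress-response gene, rose by 1.02 ± 0.30. Egr2 (-1.08, adjusted p = 0.133) and Srf (-0.05) were not called.

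**Figure D2:**
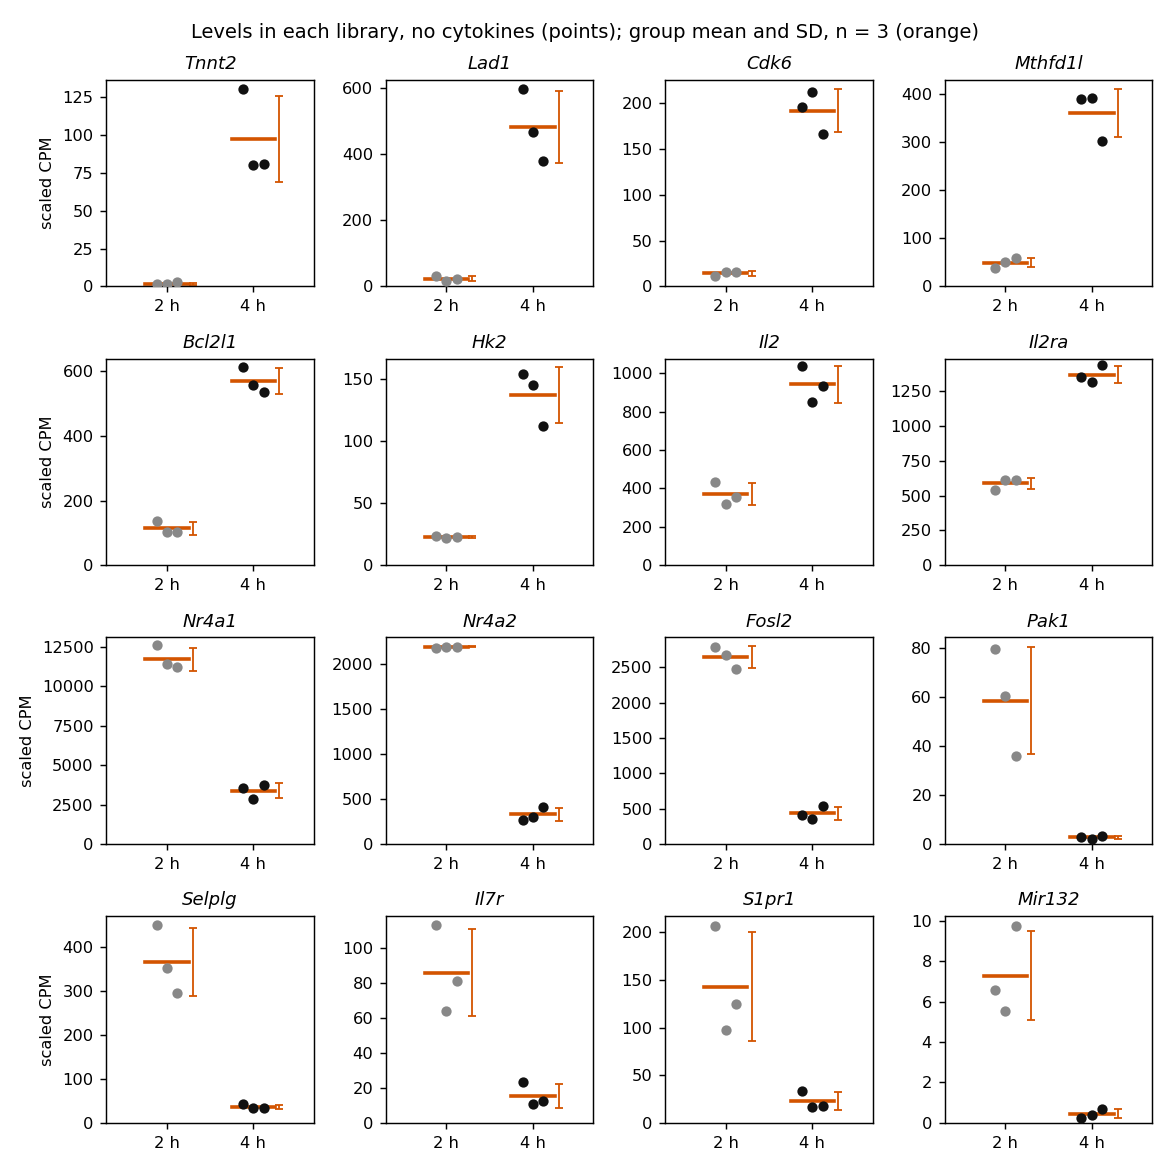
Scaled CPM (y axis, from 0) of 16 genes in the 3 libraries at 2 h (grey points) and the 3 at 4 h (black points), with the group mean as an orange line and the SD as an orange bar. For every gene shown the 2 groups do not overlap; Il2 is the only one of the 16 not called in the test across all genes.

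Of 15 MAP kinase phosphatases and Sprouty-type inhibitors, 6 were lower, 1 was higher and 8 were not called. Dusp10, a phosphatase of JNK and p38, fell by 2.95 ± 0.28, from 140, 77 and 70.9 CPM to 14.4, 10.4 and 9.92 CPM. Dusp8 fell by 1.80 and Dusp2 by 1.07, and Dusp7 rose by 1.03. In the NF-kB list 6 of 17 genes were lower, 0 higher and 11 not called, with a median of -0.44. Nfkbid, a nuclear IkB protein, went from 4040, 3430 and 3400 CPM to 1740, 1570 and 1730 CPM (-1.11 ± 0.37), Nfkbiz fell by 1.05 and Birc3 by 0.84. The subunit gene Rela fell by 0.44, whereas Nfkb1 (-0.19) and Rel (-0.73, adjusted p = 0.0733) were not called. Regulators that destabilise mRNAs showed 8 of 12 genes lower and 0 higher. Zfp36, which encodes the AU-rich element binder tristetraprolin, fell by 1.66 ± 0.16, from 557, 491 and 556 CPM to 155, 162 and 192 CPM.

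Most genes of the resting state fell. Of 24 quiescence and homing genes, 18 were lower and 4 higher, with a median of -1.26. Il7r, the receptor for the survival cytokine IL-7, read 113, 63.9 and 81.4 CPM at 2 h and 23.4, 10.6 and 12.3 CPM at 4 h (-2.49 ± 0.33). S1pr1, the receptor that guides exit from lymph nodes, read 207, 97.4 and 125 CPM and then 33.4, 16.3 and 17.7 CPM (-2.65 ± 0.65). In both genes replicate 1 was the highest library at each time. Klf2, the factor that maintains quiescence and drives S1pr1, went from 150, 126 and 113 CPM to 48.2, 41.2 and 33.9 CPM, a change of -1.65 ± 0.63 (adjusted p = 0.0268). That call was lost when any of 4 libraries was left out (replicate 1 or 2 at 2 h, replicate 2 or 3 at 4 h), with adjusted p from 0.0523 to 0.0768. It was also lost with no level filter (adjusted p = 0.0635). Foxo1 (-1.70), Txnip (-1.65), Lef1 (-0.97) and Tcf7 (-0.67) fell. None of the 18 genes that fell stood above its 0 h mean at 4 h, and 4 of them had done so at 2 h. Of all 3825 genes called lower, 932 stood above their 0 h mean at 4 h and 1797 at 2 h.

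The 4 rises in this list were Bach2, Foxp1, Slfn2 and Foxo3. Bach2, a repressor of effector differentiation, read 111, 117 and 143 CPM at 2 h and 491, 458 and 380 CPM at 4 h, a rise of 1.83 ± 0.24. Its mean was 197 CPM at 0 h, so it dipped before rising. Foxp1, a forkhead factor of naive cells, read 284, 258 and 279 CPM and then 659, 745 and 663 CPM (1.33 ± 0.13). Slfn2 rose by 1.16 and Foxo3 by 0.49.

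Several antagonists of MYC fell, and Myc itself was not called. Myc read 2420, 2070 and 1830 CPM at 2 h and 1950, 1860 and 1780 CPM at 4 h, and these groups overlap (-0.17 ± 0.19, adjusted p = 0.485). Mxd4, one of the MAX partners that oppose MYC, went from 49, 27.9 and 33.6 CPM to 5.83, 5.1 and 5.48 CPM (-2.61 ± 0.30). Mxi1 fell by 2.46 and Mxd1 by 2.18, and Max and Mga rose by 0.30 and 0.62. These were 2 genes higher and 3 lower of 11 tested, against 25.9% and 26% of all genes tested. The antagonist genes Mxd3 (-0.25) and Mnt (0.18) were not called.

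**Figure D3:**
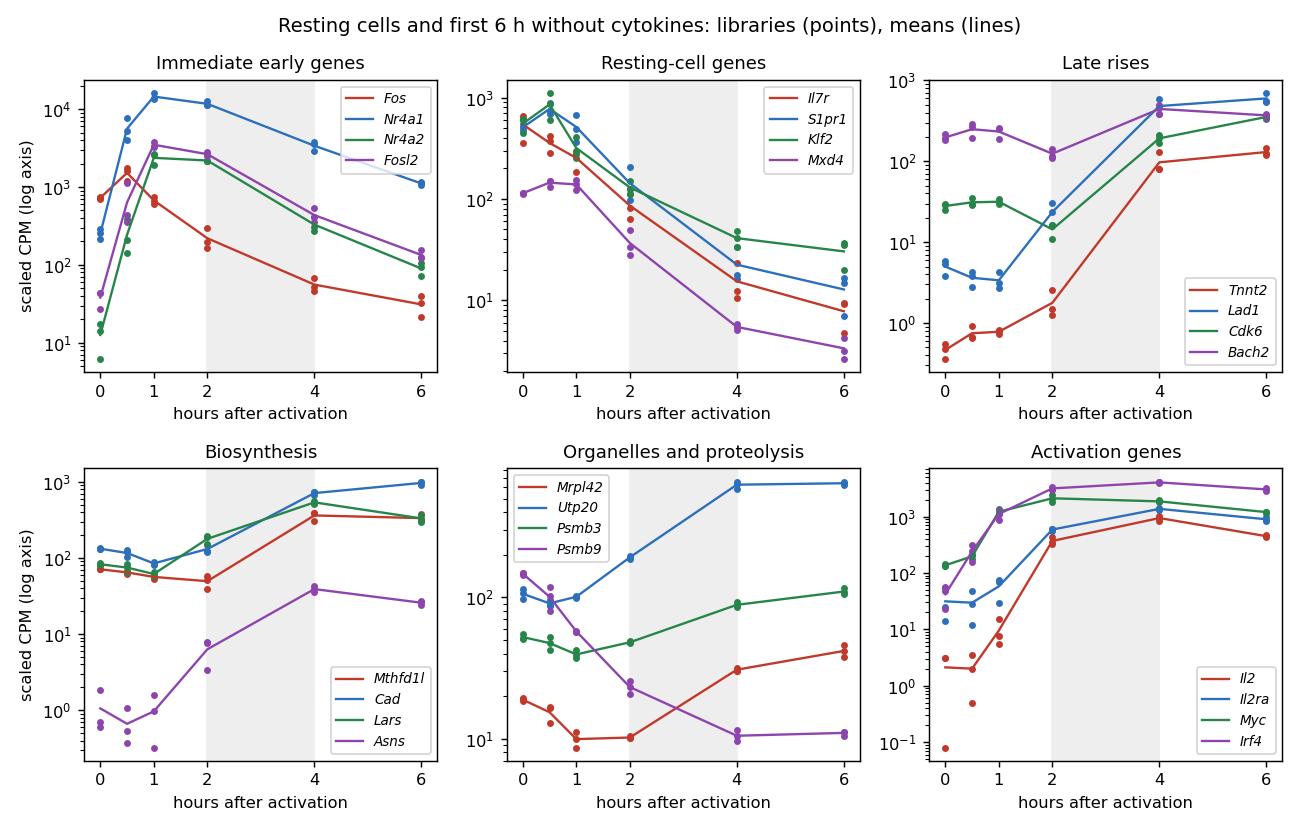
Scaled CPM (log axis) at 0, 0.5, 1, 2, 4 and 6 h without cytokines for 24 genes, with libraries as points and group means as lines; the 2 to 4 h step is shaded. Immediate early and resting-cell genes decline through the shaded span, and Tnnt2, Cdk6, Mthfd1l and Cad climb within it.

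Of 47 ribosome biogenesis genes, 31 were higher, 0 lower and 16 not called, and the median was 0.50. The log2 changes of all 47 ran from 0.13 to 1.71. With unscaled CPM 39 were higher. Utp20, a component of the small-subunit processome, read 188, 191 and 196 CPM at 2 h and 658, 638 and 585 CPM at 4 h (1.71 ± 0.19). Wdr12 rose by 1.25, Nop10 by 1.08 and Ubtf, the RNA polymerase I factor, by 1.06. Nucleolin (Ncl) went from 3210, 3180 and 3210 CPM to 5210, 5590 and 5610 CPM (0.77 ± 0.15). Rrn3 and Nop2, shown above with their promoters, rose by 0.32 and 0.44. Genes for the proteins of the cytosolic ribosome went the other way: 44 of 77 were lower and 1 higher, with a median of -0.24. Rps27 read 1120, 936 and 989 CPM and then 632, 611 and 745 CPM (-0.61 ± 0.12), and Rpl39 fell by 0.70. The size of this count rests on the scaling, since with unscaled CPM 24 were lower and 6 higher. The 1 gene higher, Rps27l, is a paralog of Rps27 and rose by 1.23. These genes have many processed copies in the genome, so how reads were shared among copies is uncertain.

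Of 20 cytosolic aminoacyl-tRNA synthetases, which load amino acids onto tRNAs, 19 were higher and 0 lower, with a median of 0.81; Qars was the other gene, at -0.08. Lars, for leucine, read 151, 189 and 194 CPM at 2 h and 565, 526 and 517 CPM at 4 h (1.60 ± 0.10). Farsb rose by 1.28 and Vars by 1.23. Of 16 initiation factor genes, 11 were higher and 0 lower. Eif4ebp1, the repressor of the cap-binding protein, had the highest rise among them, from 19.9, 31.4 and 39.6 CPM to 152, 146 and 135 CPM (2.28 ± 0.25). Eif2b3 rose by 1.42 and Eif5a by 0.83.

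In the list of ATF4 pathway genes, 10 of 18 were higher and 1 lower, with a median of 0.75, while Atf4 itself was not called (-0.41, adjusted p = 0.068). Asns, asparagine synthetase, read 3.4, 7.59 and 7.96 CPM and then 35.9, 42.2 and 39 CPM (2.62 ± 0.32). Cth, which makes cysteine, went from 0.146, 0.312 and 0.316 CPM to 10.6, 9.32 and 9.36 CPM (3.77 ± 0.57). The serine synthesis genes Phgdh, Psat1 and Psph rose by 1.92, 1.83 and 2.11, and Pck2 by 2.28. Ddit3, the death-linked factor CHOP, fell by 0.73. Of 12 amino acid transporters 6 were higher and 2 lower. Slc7a11, the cystine carrier, rose by 2.94 ± 0.33, from 2.23, 3.79 and 4.95 CPM to 27.3, 31.8 and 31.4 CPM, and Slc1a4 by 1.95. Slc7a5, the leucine carrier, was abundant at both times (1100, 1320 and 1290 CPM, then 1890, 1650 and 1820 CPM). It rose by 0.53 ± 0.17, and the call was lost without replicate 1 at 2 h (0.45, adjusted p = 0.0533). The glutamine carriers Slc38a1 and Slc38a2 fell by 0.83 and 0.54.

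One-carbon, nucleotide and polyamine synthesis had the highest median of the lists, 0.95, with 20 of 22 genes higher and 1 lower. Mthfd1l, a mitochondrial folate enzyme, read 38.8, 51.3 and 58.3 CPM at 2 h and 389, 391 and 303 CPM at 4 h (2.87 ± 0.12). Cad, the first enzyme of pyrimidine synthesis, read 121, 124 and 147 CPM and then 739, 728 and 661 CPM (2.44 ± 0.14). Mthfd1 and Shmt2 rose by 2.04 and 1.86. The gene that fell was Odc1, ornithine decarboxylase of polyamine synthesis, from 2190, 2320 and 1880 CPM to 1270, 1380 and 1490 CPM (-0.62 ± 0.24, adjusted p = 0.0271). Its call was lost with unscaled CPM (-0.49, adjusted p = 0.0907), with no level filter (-0.60, 0.085) and without replicate 1 or 2 at 2 h or replicate 1 or 2 at 4 h (0.0561 to 0.0854).

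Energy metabolism was mixed. Of 18 glycolysis genes 8 were higher and 4 lower. Hk2, the inducible hexokinase, read 23.4, 21.9 and 22.3 CPM and then 154, 145 and 112 CPM (2.56 ± 0.30), and Pfkl and Pgk1 rose by 1.16 and 0.96. Falls were in the carriers Slc16a3 (-1.30) and Slc2a3 (-0.99), in Pfkfb3 (-1.04) and in Hk1 (-0.53), while the glucose transporter gene Slc2a1 was not called (-0.05). Of 73 mitochondrial ribosomal protein genes, 62 were higher and 2 lower (Mrpl4, -0.31, and Mrpl33, -0.30), with a median of 0.51. Mrpl42 was almost constant within groups, at 10.2, 10.1 and 10.4 CPM and then 31.7, 30.2 and 30.3 CPM (1.54 ± 0.12). The Mrpl33 call was lost with unscaled CPM (-0.17, adjusted p = 0.185) and without replicate 3 at 2 h (-0.25, 0.0572). Of 73 nuclear-encoded respiratory chain genes 32 were higher and 7 lower. With unscaled CPM these were 48 and 3. Ndufa12 rose by 1.10 and Uqcrh fell by 0.74.

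Of 38 proteasome genes 27 were higher and 3 lower, with a median of 0.29, and Psmb3 rose by 0.87 ± 0.08. The 3 that fell, Psmb8, Psmb9 and Psmb10, encode the catalytic subunits of the immunoproteasome, the form linked to interferon; Psmb9 read 25.7, 20.6 and 23.2 CPM and then 10.5, 9.59 and 11.6 CPM (-1.10 ± 0.15). Of 18 endoplasmic reticulum chaperone and Xbp1 target genes 9 were higher and 2 lower. Sdf2l1 rose by 1.54 and Hyou1 by 1.00, Edem1 and Herpud1 fell by 0.97 and 0.65, and Hspa5 did not pass the test (0.00). Of 12 heat shock genes 6 were higher and 0 lower, led by the mitochondrial chaperonin Hspd1 (1.40 ± 0.30) and Hsph1 (1.19 ± 0.40). Hspa1a, the stress-inducible HSP70, varied widely between replicates: it read 3.35, 7.85 and 48.9 CPM at 2 h and 2.02, 4.35 and 23.9 CPM at 4 h (-0.81 ± 1.09, adjusted p = 0.567). Replicate 3 was the highest at both times, and each replicate was lower at 4 h than at 2 h.

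Of 25 sterol and fatty acid genes 13 were higher and 6 lower. Sqle, which encodes squalene epoxidase, rose by 1.19. The efflux pump genes Abcg1 and Abca1 fell by 2.57 and 1.44. Mvk, an early enzyme of the mevalonate pathway, fell by 2.30 ± 0.16, from 20.1, 14.7 and 15.1 CPM to 2.55, 3.03 and 3.31 CPM.

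Of 18 G1 genes 2 were higher, 6 lower and 10 not called. With unscaled CPM these counts were 5 and 4, so the balance of this list depends on the scaling. Cdk6, a kinase that partners D-type cyclins, read 11.1, 15.8 and 16.2 CPM at 2 h and 196, 213 and 167 CPM at 4 h, a rise of 3.70 ± 0.21. Cdk4 rose by 1.54 ± 0.09, from 107, 102 and 104 CPM to 319, 310 and 285 CPM. The inhibitors Cdkn1b (p27) and Cdkn2d fell by 1.58 and 1.65, and Rbl2 by 1.60. The cyclin gene Ccnd2 was not called (0.18). Of 20 replication and mitosis genes 3 were higher (Mcm7, Mcm2 and Mcm3, at 0.48, 0.37 and 0.29), 3 lower (Cdt1, Cdc45 and Pcna, which fell by 1.00, 0.57 and 0.26) and 14 not called. With unscaled CPM 6 were higher and 2 lower. The Mcm3 call was lost without replicate 2 at 2 h (0.24, adjusted p = 0.0814) or replicate 3 at 4 h (0.23, 0.091). The Pcna call was lost with unscaled CPM (-0.13, adjusted p = 0.314), with no level filter (-0.24, 0.117) and without replicate 3 at 2 h or replicate 1 or 2 at 4 h (0.114 to 0.229).

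In the BCL2 family 3 genes were higher and 4 lower of 13, near the shares over all genes tested (25.9% and 26%). Bcl2l1, which encodes the survival protein BCL-XL, read 137, 103 and 102 CPM and then 613, 558 and 535 CPM (2.33 ± 0.23). The pro-death genes Bax and Bid rose too, by 1.86 and 1.46. Mcl1 (-0.56), Bmf (-0.63), Pmaip1 (-0.82) and Bcl2l11 (-0.48) fell. With unscaled CPM 4 were higher and 2 lower, and Bcl2l11 was then not called (-0.36, adjusted p = 0.0916). The Bcl2l11 call was also lost with no level filter (0.0616) and without replicate 1 at 2 h or replicate 2 at 4 h (0.107 and 0.0714). The Pmaip1 call was lost without replicate 3 at 2 h or replicate 1 at 4 h (0.0904 and 0.136).

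Cytokine and receptor genes moved in both directions, as did the genes tested as a whole. Of 26 ligands 7 were higher and 7 lower, near the shares over all genes tested (25.9% and 26%). For the ligands edgeR called 4 higher and DESeq2 5. Il2, the T cell growth factor, read 433, 321 and 357 CPM at 2 h and 1040, 849 and 936 CPM at 4 h. The groups do not overlap, but the change of 1.35 ± 1.05 was not called (adjusted p = 0.295) in the fit over all 57 libraries of these courses, which share 1 estimate of the spread for each gene. In a fit of the 6 libraries alone it was called (1.34, adjusted p = 1.12e-05), also with replicate as a block (adjusted p = 8.84e-09). Il2ra, the high-affinity chain of the IL-2 receptor, went from 544, 611 and 611 CPM to 1350, 1320 and 1440 CPM (1.22 ± 0.38, adjusted p = 0.00668). Xcl1 rose by 3.03 and Tnfsf8, the CD30 ligand, by 1.63. Ccl3 rose by 2.26 ± 0.86, but lost its call without replicate 1 at 2 h, or replicate 2 or 3 at 4 h (adjusted p = 0.064 to 0.0776). It also lost the call with no level filter (adjusted p = 0.0544). Tnf fell by 0.51, from 1070, 968 and 1130 CPM to 725, 686 and 813 CPM, and Cd40lg, the helper signal to B cells, by 1.27, from 1160, 954 and 849 CPM to 398, 418 and 402 CPM. Lif fell by 1.14, a call lost without replicate 1 at 2 h (-0.91, adjusted p = 0.0913). Ifng stayed low, at 1.21, 1.4 and 2.48 CPM and then 1.22, 0.923 and 1.98 CPM.

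Among 19 activation and checkpoint receptors 6 were higher and 3 lower, against 25.9% and 26% of all genes tested. Cd200 rose by 2.25 and the costimulatory receptor genes Tnfrsf9 and Tnfrsf4 by 1.56 and 1.40, whereas Tnfrsf1b fell by 1.91, Ctla4 by 1.61 and Cd28 by 1.43. Cd69, the early activation marker, read 3040, 2640 and 2400 CPM and then 2090, 1790 and 1940 CPM and was not called (-0.47 ± 0.26, adjusted p = 0.126); in the fit of the 6 libraries alone it was (adjusted p = 0.00233). In that fit 9 receptors were lower and 7 higher. Of 14 IL-2 and STAT5 genes 2 were higher, Bcl2l1 and Stat5a (0.91), and 5 lower, among them the feedback inhibitors Socs3 (-2.61) and Socs1 (-1.98). Of 24 activation and lineage factors 2 were higher, Batf (1.07) and Tox2 (1.58), and 7 lower, among them Bcl6, the follicular helper factor (-1.90 ± 0.33), Maf (-1.38) and Id2 (-0.74). With unscaled CPM these counts were 5 and 6, and in the fit of the 6 libraries alone 8 and 7. The Id2 call was lost without replicate 3 at 2 h or replicate 1 at 4 h (adjusted p = 0.0828 and 0.0703). Irf4, required for effector fates, read 3410, 3090 and 2970 CPM and then 4150, 4050 and 3910 CPM. Its change was not called in the fit of all courses (0.36 ± 0.43, adjusted p = 0.514) and was called with the 6 libraries alone (0.34, adjusted p = 0.00389).

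The named rises with the largest change included genes outside these lists. Tnnt2, a troponin of heart muscle, was near absent at 2 h (1.51, 1.25 and 2.58 CPM) and read 130, 80.3 and 80.8 CPM at 4 h, a rise of 5.42 ± 0.23. Lad1, a filament-anchoring protein, went from 30.8, 16.4 and 23.5 CPM to 596, 468 and 379 CPM (4.34 ± 0.53). Phlda3, a p53 target that restrains AKT, rose by 4.12, and the glycine carrier Slc6a9 by 3.86. Spire1, Phactr2, Alpl, Slc7a3 and Cpd rose by 3.04 to 3.61. The largest named fall was in Pak1, a kinase of the cytoskeleton, from 79.3, 60.4 and 35.9 CPM to 3.01, 2.15 and 3.12 CPM (-4.12 ± 0.21). Selplg, the selectin ligand PSGL-1, read 450, 352 and 297 CPM and then 42.1, 34.4 and 34.8 CPM (-3.27 ± 0.32). Ramp3, which modifies a peptide hormone receptor, read 1080, 914 and 615 CPM and then 75.5, 67.8 and 81.8 CPM (-3.49 ± 0.41). Arhgef10, Dnah8, Agpat9, Rrad, Igfbp4, Tpm4 and Dusp10 fell by 2.95 to 3.30. For all 24 of these genes the libraries of the 2 times did not overlap, which the rule for naming required.

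The levels reached by 6 h are described here from group means, with no test. Of genes called higher at 4 h, all 10 of the ATF4 list, 17 of 19 tRNA synthetases and 21 of 31 ribosome biogenesis genes had their highest mean of the first 6 h at 4 h. All 27 of the proteasome genes, all 9 of the endoplasmic reticulum genes, 51 of 62 mitochondrial ribosomal and 28 of 32 respiratory chain genes were highest at 6 h. Over all genes called higher, 980 of 3799 were highest at 4 h and 2085 at 6 h. Lars stood at 536 ± 25.5 CPM at 4 h and 330 ± 33 CPM at 6 h (SD, n = 3), whereas Psmb3 stood at 88.6 ± 3.8 and 110 ± 6.08 CPM.

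The same step with IL6 and TGFb called 7526 of 14695 genes (51.2%), and the difference between the 2 steps was called for 503 genes (3.42%), 234 with a higher change without cytokines (1.59%) and 269 with a lower one (1.83%). With the replicate as a block and only the 12 libraries compared, 1908 differences were called, and without replicate 2 of the cytokine group at 4 h 306 were. Of 22 interferon response genes, 12 had a higher change without cytokines and 0 a lower one. In the step without cytokines 15 of these genes were lower and 0 higher (median -0.75), and none of the 15 was above its 0 h mean at 4 h. Among all 3825 genes called lower in that step, 932 were above their 0 h mean at 4 h. Irf7 fell by 2.24 and Ddx58, the RNA sensor RIG-I, by 2.30 without cytokines, and their differences were not called (1.08 and 0.51, adjusted p = 0.214 and 0.824). Parp14 fell by 0.93 without cytokines, from 70.5, 67.6 and 71.6 CPM to 35.8, 32.9 and 40.8 CPM, and from 589, 458 and 412 CPM to 66.9, 51.3 and 69.1 CPM with them, a difference of 2.01 (adjusted p = 4.11e-05). At 2 h the cytokine libraries were the higher ones in each of these genes, so the 2 falls started from different levels. Mvk had a difference of -1.44 and Mxd1 of 1.21, and Batf and Tox2 of 1.08 and 1.5. Tnnt2 and Xcl1, 2 of the largest named rises, had differences of 1.29 and 1.6. Differences were called for 0 of 47 ribosome biogenesis genes, 0 of 20 tRNA synthetases, 0 of 22 one-carbon and nucleotide genes, and 1 of 24 quiescence genes. These counts are near the 3.42% of all genes tested and do not show that the lists moved alike in both cultures. Lists above that share were the receptors (0 higher and 3 lower of 19, with Ctla4 at -1.05 and Cd28 at -0.99), the lineage factors (2 and 2 of 24) and the ligands (2 and 1 of 26).

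**Figure D4:**
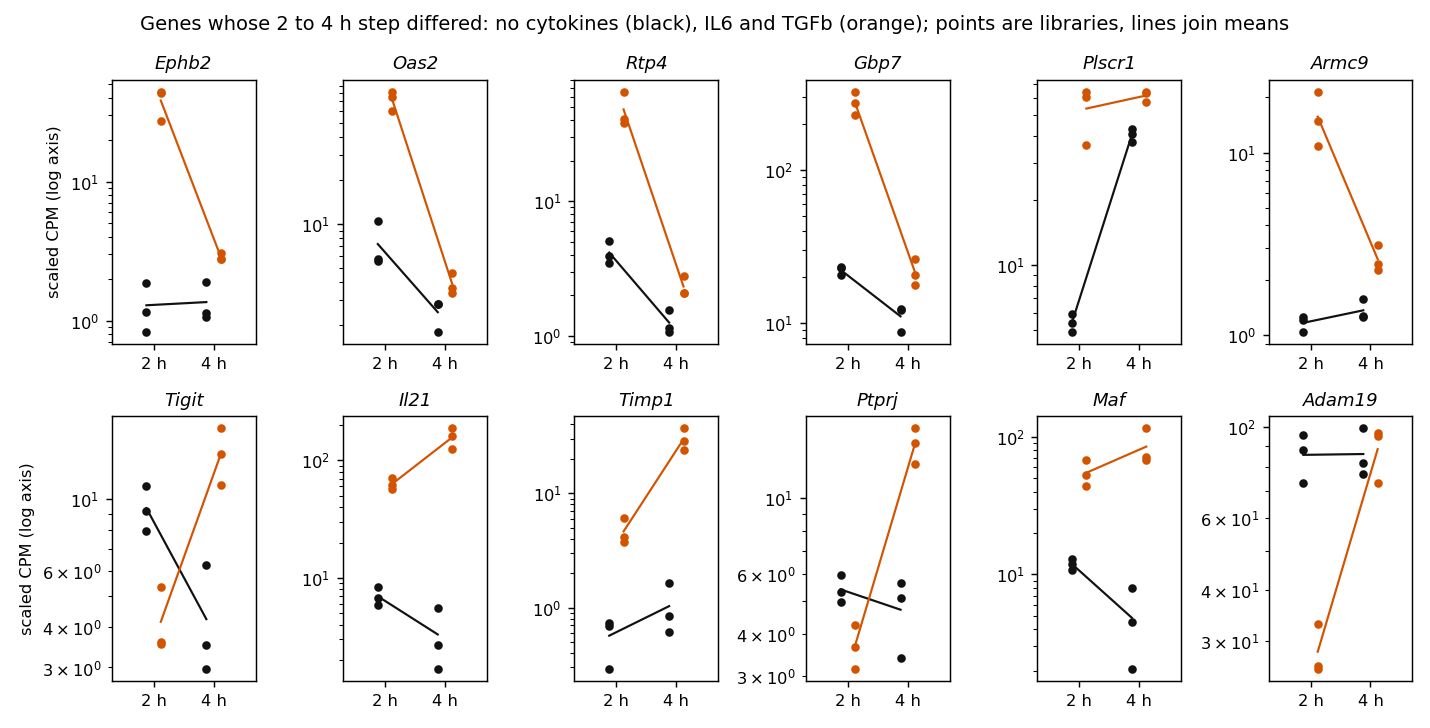
Scaled CPM (log axis) at 2 and 4 h of the 12 genes named for a differing step, without cytokines in black and with IL6 and TGFb in orange, with libraries as points and lines joining group means. Oas2, Rtp4 and Gbp7 fall in both cultures and more steeply from the higher 2 h level of the cytokine culture, and for Tigit, Il21 and Maf the 4 h mean is below the 2 h mean without cytokines and above it with them.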

How the data were processed

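Libraries followed standard Illumina protocols, per the labels. TopHat and HTSeq appear as tools and mm9 and GRCh37 (a human build) as genomes in the submitters' processing notes, with neither versions nor roles. Strand handling and annotation are not given in the sources used here, so overlapping, antisense and near-identical genes are uncertain. The deposited table holds CPM, as its values show: all columns have 1 common sum, and 100% of values were whole reads (tolerance 0.001) once rescaled. It lists 46517 genes; 0 columns were unused.

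Genes at 1 CPM or more in at least 3 of 57 libraries (19 groups: naive cells of the first set, and all times of the Th0 and the IL6 and TGFb cultures) were kept, 14695 in all. CPM were scaled by TMM factors (edgeR 4.0.16), and log2(CPM + 0.5) was fitted with limma 3.58.1 (limma-trend, 38 residual degrees of freedom, R 4.3.3), with Benjamini-Hochberg adjustment over all genes and a threshold of 0.05. The difference of the step between cultures was a contrast in the same fit. Tests of the recovered reads with edgeR and DESeq2 1.42.0 were alternatives. No gene lengths were used, so levels are not compared between genes. Tested on simulated data (13756 genes, 57 libraries), limma recovered 100% of genes changed by 1 or 2 (log2) in this step, and 73% and 99% for the difference. It also called 9 unchanged genes in the step and 7 in the difference. The simulation gave all genes and groups the same dispersion, had no replicate effect and changed none of the lowest genes. Only 100 genes were changed at each size, evenly up and down, whereas 51.9% of genes were called in the data. The simulation therefore cannot show the recovery for genes or groups with a larger spread, nor how the TMM scaling does when so many genes change.

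Same-numbered replicates deviated together (correlations 0.291, 0.153 and 0.273, against -0.235 to -0.029 for other pairs). Deviations were taken from group means, so positive values for same-numbered pairs push those of other pairs below 0. The labels' numbers were taken to pair samples only in the alternative fits with the replicate as a block. The main fit had no replicate term, so its standard errors and p-values leave the pairing out. Replicates differed by 7.44 to 19.6 in chi-square per gene, so none was a copy of another.

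The genes and lists were chosen with earlier results of these data known. Named genes were called, reached 5 CPM in the higher group, had non-overlapping libraries and no clone or predicted symbol: the 12 largest rises and 12 largest falls, up to 3 in each direction from each of 30 lists, and a fixed panel of activation genes; for the difference, 6 in each direction. Other list members printed were chosen after their values were seen. Promoter and miRNA sequences were matched by symbol or synonym. The plot of lists leaves out 2 of them: of 295 Zfp-named genes 82 were higher and 57 lower, and of 7 snoRNA host genes 1 was higher and 1 lower. A few genes that the rule would name are not reported here.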

Additional observations from a re-analysis of the deposited data

Results flagged for a closer look

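Each gene here had a 2 to 4 h step that differed between the cultures without cytokines and those with IL6 and TGFb, by the contrast of the 2 steps in limma; differences are the log2 change without cytokines minus that with them. Those with a positive difference were Ephb2 (3.57, adjusted p = 1.98e-08), Oas2 (2.70), Rtp4 (2.68), Gbp7 (2.65), Plscr1 (2.56) and Armc9 (2.50). Ephb2, a guidance receptor gene, was low without cytokines at both times (0.826, 1.87 and 1.16 CPM, then 1.14, 1.06 and 1.89 CPM), and with IL6 and TGFb went from 43.5, 44.3 and 27.2 CPM to 2.78, 2.79 and 3.06 CPM. Oas2, an antiviral enzyme gene, fell in both cultures, from 5.59, 5.72 and 10.5 CPM to 1.79, 2.81 and 2.79 CPM without cytokines and from 81.6, 75.4 and 59.7 CPM to 3.63, 3.34 and 4.62 CPM with them. Plscr1, a phospholipid scramblase gene, rose without cytokines from 4.86, 5.92 and 5.38 CPM to 37.5, 41 and 43 CPM (2.80 ± 0.32), and stood at 60.5, 63.8 and 36.4 CPM and then 63.4, 64.2 and 57.5 CPM with them.

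Those with a negative difference were Tigit (-2.73, adjusted p = 0.029), Il21 (-2.39), Timp1 (-2.07), Ptprj (-2.04), Maf (-1.98) and Adam19 (-1.62). Il21, a helper cytokine gene, read 6.7, 8.32 and 5.9 CPM and then 1.68, 2.68 and 5.53 CPM without cytokines, a fall of 1.09 (adjusted p = 0.0227). That call was lost without replicate 1 at 4 h (-0.76, adjusted p = 0.167), replicate 2 at 4 h (0.064) or replicate 2 at 2 h (0.0796). It was also lost with DESeq2 (-1.08, adjusted p = 0.0571) and in limma with no level filter (-1.08, 0.0554). With IL6 and TGFb it went from 61.7, 70.9 and 56.6 CPM to 161, 187 and 124 CPM. Tigit, an inhibitory receptor gene, read 9.18, 7.95 and 11 CPM and then 2.97, 3.52 and 6.24 CPM without cytokines, and 3.56, 3.6 and 5.33 CPM and then 11.1, 16.6 and 13.8 CPM with them. Its difference lost the call when any of 8 libraries was left out, with adjusted p up to 0.0889. The Il21 difference lost its call without replicate 1 at 4 h of the culture without cytokines (-2.06, adjusted p = 0.0559). The Timp1 difference lost its call with edgeR (-1.84, adjusted p = 0.204), DESeq2 (-1.81, 0.109) and a pseudocount of 0.1 CPM (-1.93, 0.0782). The Rtp4 difference lost its call with that pseudocount (2.64, adjusted p = 0.0634). Adam19, a shedding protease gene, was not called without cytokines (95.8, 87.9 and 73.2 CPM, then 99.3, 81.7 and 77 CPM) and went from 33.1, 25.7 and 26.1 CPM to 96.9, 95.3 and 73.1 CPM with them.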

How the results depend on the processing

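The counts of genes called in the 2 to 4 h step kept within 1.5 times under every alternative. They ran from 3500 to 4666 higher and from 3010 to 4200 lower over other pseudocounts, filters, scaling, tools, library sets and the replicate block, and from 3417 to 3583 higher and 3427 to 3600 lower when 1 library was left out. The number of differing steps was less firm: 503 became 838 with only the libraries compared, 755 without both 72 h groups and 1908 with the replicate block and only the libraries compared. Leaving out 1 library gave 306 to 534, the lowest without replicate 2 of the IL6 and TGFb group at 4 h. The cause was not tested. The replicate block over all courses gave 3856 higher, 3906 lower and 562 differences, and changed no call among the named genes. No called change of a named gene reversed its direction under any alternative; 3 changes that were not called crossed 0 (Ephb2 from -0.12 to 0.30, Adam19 from -0.10 to 0.13 and Ifng from -0.45 to 0.01). Of 177 named log2 changes 157 kept their call throughout and 16 lost it under at least 1 alternative; of 12 differences 8 kept it and 4 (Rtp4, Tigit, Timp1 and Il21) lost it. Depth limits genes near 1 CPM, where few reads stand behind each value.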
